A study of Bos taurus with 10 samples.

Results

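Cells of an epithelial sheet are held together by junctions. Adherens junctions, built on E-cadherin, bind neighbouring cells mechanically, and tight junctions, built on claudins and occludin and anchored by plaque proteins of the zonula occludens family, close the space between cells and set which ions and solutes pass. In the lactating mammary gland closed tight junctions keep milk and blood apart, in liver they line the bile canaliculi, and adipose tissue has no epithelial sheet of its own apart from the mesothelium that covers the visceral depots. The 8 genes described here are CDH1, EPCAM, CLDN1, CLDN4, CLDN7, OCLN, TJP3 and CRB3. They were taken by current gene symbol from 4366 genes that could be named on the arrays, and all 8 were found, on 11 cDNA elements in total. CDH1, CLDN1 and TJP3 each had 2 elements from different cDNA clones, and the other 5 genes had 1 element each.

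RNA of bovine tissues taken at peak lactation was measured in mammary gland, liver, subcutaneous adipose tissue, mesenteric adipose tissue and omental adipose tissue. The labels give no breed, age or number of animals. Each tissue was hybridised on 2 two-colour cDNA arrays against a common reference mixed from tissues, with the tissue in Cy3 on the first array and in Cy5 on the second, 10 arrays in all. Both arrays of a tissue carry the same RNA, so each tissue is 1 sample, the spread from animal to animal is unknown and no test was made.

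A level below is the log2 ratio of tissue over reference, centred on the array's median. A difference between tissues was taken within each dye orientation, and the error after ± is the dye orientation error, which is the distance of either orientation from their mean. A difference passed the size rule when its mean reached 1 log2 unit (2-fold) and both orientations lay on the same side of 0. The deposited values do not state the direction of the ratio. It was taken as Cy5 over Cy3, the likely direction, and the opposite reading would turn the sign of every level and difference. The genes were named through a print layout rebuilt from the agreement of clones, in a search that left out these 8 genes, and the name of any 1 clone may be wrong. Levels are relative to the reference, so a higher level of 1 gene than of another does not mean more transcript.

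Arrays of the same tissue in opposite dyes correlated at -0.78 to -0.66 across spots before the sign was turned. Of 16416 spots, 15970 to 16245 carried a value on an array, and 4307 of the named genes were measured on every array. Over the spot pairs of the 8 genes the median gap between duplicate spots was 0.12 log2 units, against 0.11 over all elements. Among markers of the labelled tissues, MFGE8, a milk fat globule protein, stood at 3.71 ± 0.54 in mammary gland, and SLC10A1, the bile acid transporter of hepatocytes, at 4.54 ± 1.56 in liver. Of the 3 measured hepatocyte markers, SLC10A1 and TF (transferrin) were higher in liver than in adipose tissue by the size rule, at 5.85 ± 0.14 and 5.12 ± 0.63. The remaining gene, APOA1, an apolipoprotein, did not mark liver: it stood at 0.85 ± 0.37 in liver and was highest in subcutaneous adipose tissue, at 1.86 ± 0.21. The adipocyte gene LIPE, a hormone-sensitive lipase, stood at -0.34 ± 0.06 in subcutaneous adipose tissue, below the array median, against 2.18 ± 0.42 in mesenteric and 1.04 ± 0.02 in omental adipose tissue. The position of MFGE8 and SLC10A1 is no independent check of direction, since liver and milk genes were its basis.

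**Figure D1:**
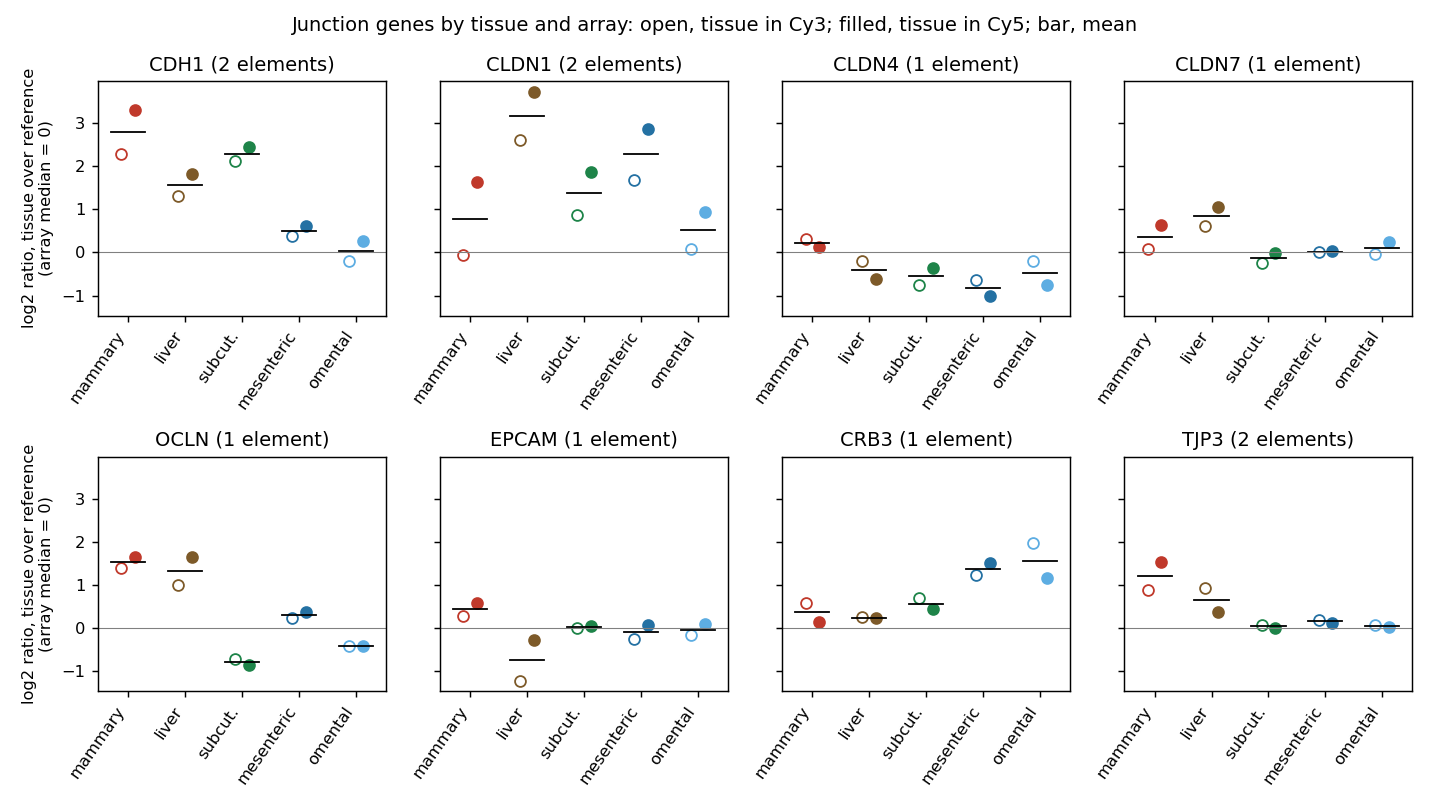
Log2 ratio of tissue over reference (vertical axis, array median at 0) for the 8 junction genes in 5 tissues. Open points are arrays with the tissue in Cy3, filled points arrays with the tissue in Cy5, and bars their mean. CDH1 was high in mammary gland and in subcutaneous adipose tissue, CLDN1 in liver and mesenteric adipose tissue, OCLN in mammary gland and liver, and CRB3 in the visceral depots.

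The junction genes did not share a single tissue pattern. Mammary gland held the highest level of 5 of them (CDH1, CLDN4, OCLN, EPCAM and TJP3), liver that of CLDN1 and CLDN7, and omental adipose tissue that of CRB3. The top place of mammary gland held in both dyes for CDH1, CLDN4 and EPCAM, while OCLN and TJP3 changed order with liver between the dyes. Among all 4307 genes mammary gland was the highest tissue for 23.3%, liver for 24.5% and omental adipose tissue for 9.94%. Mammary gland was the lowest tissue for none of the 8, and it was lowest for 26.8% of all genes. With the ratio read the other way mammary gland would be the lowest tissue for 5 of the 8 and the highest for none, against 23.3% and 26.8% of all genes. The range of a gene over the 5 tissues was 2.76 log2 units for CDH1, 2.66 for CLDN1 and 2.31 for OCLN, a range that 4.57%, 5.06% and 7.64% of all genes reached. The ranges of the other 5 genes lay between 0.96 for CLDN7 and 1.32 for CRB3, against a median of 0.73 over all genes.

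CDH1 encodes E-cadherin, the adhesion receptor of epithelial adherens junctions. Its level was 2.28 and 3.29 in mammary gland (tissue in Cy3 and in Cy5) and 1.30 and 1.82 in liver. It was 2.12 and 2.43 in subcutaneous adipose tissue, 0.39 and 0.61 in mesenteric and -0.21 and 0.26 in omental adipose tissue. Mammary gland and subcutaneous adipose tissue were high, liver was intermediate, and both visceral depots were near the array median. Mammary gland lay above subcutaneous adipose tissue in both orientations, but by 0.17 in the first and 0.86 in the second (0.51 ± 0.35), and their array values overlapped. Each further step down the order, from subcutaneous adipose tissue to liver (0.72 ± 0.10), to mesenteric (1.05 ± 0.15) and to omental adipose tissue (0.47 ± 0.12), had the same sign in both orientations. Both CDH1 clones gave this order. Their largest gap in any tissue was 0.25, and the cosine of their profiles over the 5 tissues was 0.998. Such agreement is no independent check of the clone names, here or for CLDN1 and TJP3. Although the search left out these genes, the layout was known from earlier work on all genes.

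EPCAM is an adhesion molecule of epithelial cells that also binds claudins. Its level was 0.28 and 0.59 in mammary gland and -1.22 and -0.28 in liver. The depots lay close together, at 0.00 and 0.05 in subcutaneous, -0.26 and 0.06 in mesenteric and -0.16 and 0.09 in omental adipose tissue. The range over the 3 depots was 0.13, which 86.8% of all genes reached. Subcutaneous and omental adipose tissue changed order with the dye, and liver was lowest in both orientations.

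Of the 3 claudins, which form the strands of the tight junction, CLDN1 varied most. The level of CLDN1, a sealing claudin, was -0.07 and 1.62 in mammary gland and 2.61 and 3.72 in liver. It was 0.88 and 1.86 in subcutaneous, 1.69 and 2.86 in mesenteric and 0.09 and 0.93 in omental adipose tissue. Liver was highest and mesenteric adipose tissue next (0.89 ± 0.03 apart), while mammary gland and omental adipose tissue changed order with the dye (0.27 ± 0.42). As for CDH1, CLDN7 and EPCAM, the array with the tissue in Cy5 read CLDN1 higher in all 5 tissues. Much of the CLDN1 gap drops out of differences taken within an orientation, but less so in those with mammary gland, where the gap was widest. The dye orientation error of the CLDN1 level was 0.85 in mammary gland, against 0.42 to 0.59 in the other tissues. The 2 clones had a cosine of 0.971 but differed by 0.91 in mammary gland, at 0.32 and 1.24. In the second clone the duplicate spots of the mammary gland array in Cy5 read 1.03 and 3.69, the widest gap among the spots of the 8 genes.

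CLDN4 encodes another claudin of simple epithelia and stood at 0.30 and 0.12 in mammary gland and -0.21 and -0.62 in liver. It stood at -0.75 and -0.36 in subcutaneous, -0.63 and -1.002 in mesenteric and -0.20 and -0.76 in omental adipose tissue. Mammary gland lay above every other tissue on every array, and no neighbouring pair among the other 4 tissues kept its order in both dyes.

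CLDN7 encodes a claudin found along the lateral membrane as well as in tight junctions. Its level was 0.07 and 0.63 in mammary gland and 0.62 and 1.05 in liver. Subcutaneous adipose tissue read -0.25 and -0.01, mesenteric 0.00 and 0.04, and omental -0.04 and 0.23. Liver was above mammary gland by 0.48 ± 0.07, a step with the same sign in both orientations but under the size rule, and the visceral depots changed order with the dye.

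OCLN encodes occludin, a tight junction membrane protein with 4 passes through the membrane. Its level was 1.40 and 1.65 in mammary gland and 1.01 and 1.66 in liver. It was -0.72 and -0.86 in subcutaneous, 0.23 and 0.37 in mesenteric and -0.42 and -0.41 in omental adipose tissue. Mammary gland and liver could not be ordered (0.19 ± 0.20). All depots lay below both organs on every array, and mesenteric, omental and subcutaneous adipose tissue followed in that order, in both orientations, with steps of 0.71 ± 0.07 and 0.38 ± 0.07.

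TJP3 encodes ZO-3, a plaque protein that binds claudins and occludin on the inner side of the membrane. Its level was 0.88 and 1.52 in mammary gland and 0.94 and 0.38 in liver. The depots lay between 0.00 and 0.19 on all 6 arrays. Mammary gland and liver exchanged order with the dye (0.54 ± 0.60), and both were above each depot. The 2 clones of TJP3 differed by at most 0.15 in a tissue, with a cosine of 0.987.

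CRB3 encodes a small apical membrane protein of the Crumbs polarity complex, which places the tight junction at the upper edge of the cell. Its level was 0.59 and 0.13 in mammary gland, 0.25 and 0.23 in liver, 0.69 and 0.43 in subcutaneous, 1.23 and 1.50 in mesenteric and 1.98 and 1.15 in omental adipose tissue. The visceral depots were high and changed order with the dye, and the other tissues were lower on every array. CRB3 had 1 element, and its duplicate spots read 3.01 and 0.94 on the omental array in Cy3, the second widest gap among these genes.

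**Figure D2:**
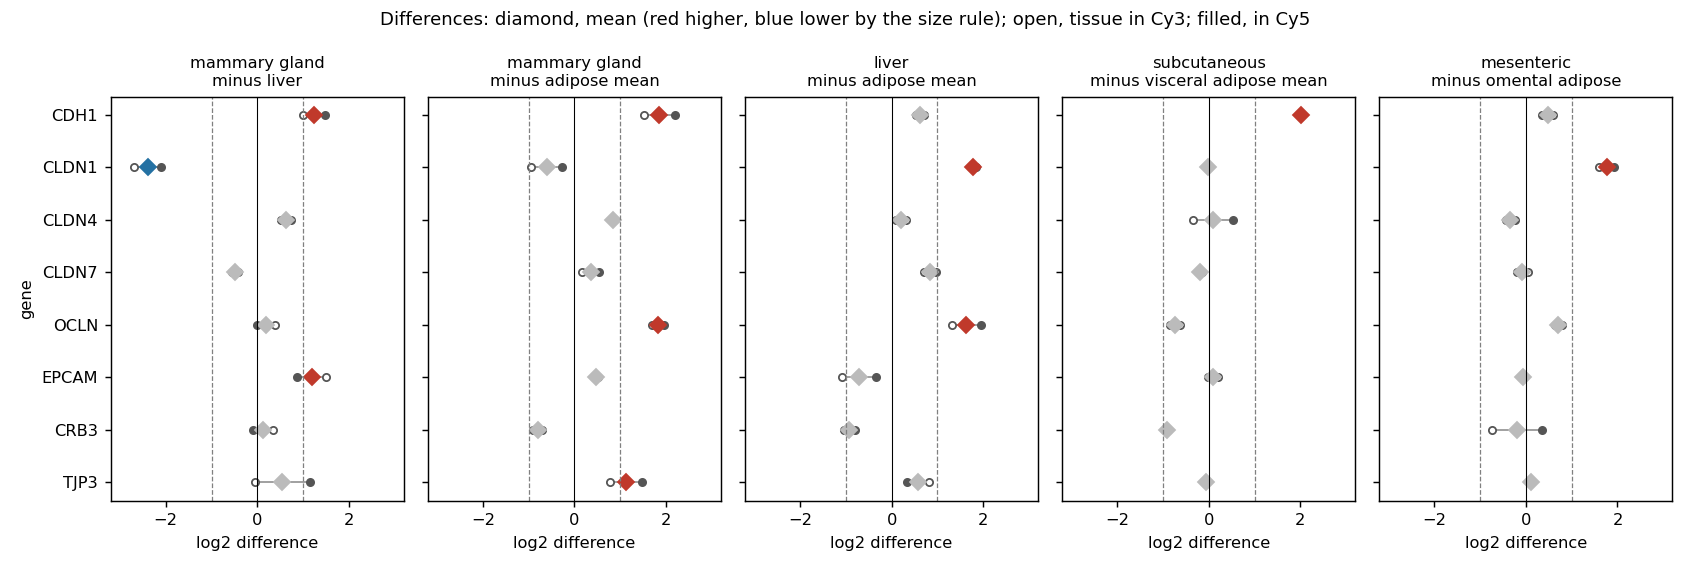
Log2 differences between tissues (horizontal axes) for the 8 genes. Diamonds are the mean of both dye orientations, red where higher and blue where lower by the size rule, open and filled points are the orientations with the tissue in Cy3 and in Cy5, and dashed lines mark 1 log2 unit. CLDN1 reaches -2.39 between mammary gland and liver and 1.76 between mesenteric and omental adipose tissue.

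Mammary gland was first set against the mean of the 3 adipose depots, a secretory epithelium against tissue made mostly of fat and stromal cells. CDH1, OCLN and TJP3 were higher in mammary gland, and none of the 8 was lower by the size rule. CDH1 averaged 2.79 in mammary gland and 0.93 in adipose tissue, a difference of 1.85 ± 0.34 (3.61-fold). OCLN averaged 1.52 in mammary gland and -0.30 in adipose tissue, a difference of 1.82 ± 0.12 (3.53-fold). TJP3 averaged 1.20 in mammary gland and 0.08 in adipose tissue, a difference of 1.12 ± 0.35 (2.17-fold) that fell under the size rule, at 0.77, on the arrays with the tissue in Cy3 alone. The 3 genes of 8 stand beside 2.88% of 4313 genes higher and 6.72% lower by the size rule in this comparison. CDH1 took place 33 and OCLN place 35 in the order of all 4313 differences, or places 4281 and 4279 with the ratio read the other way.

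The remaining 5 did not pass. CLDN4 stood at 0.83 ± 0.00, EPCAM at 0.47 ± 0.05 and CLDN7 at 0.35 ± 0.19, each with mammary gland higher in both orientations. CLDN1 stood at -0.61 ± 0.34 and CRB3 at -0.80 ± 0.09, each with mammary gland lower in both. The median of the 8 differences was 0.65, against -0.05 over all genes, and 6 of 8 were higher and 2 lower in both orientations at any size, against 34.0% and 43.5% of all genes. Without the subcutaneous depot in the mean, CRB3 passed as lower in mammary gland at -1.10 and CDH1 stood at 2.52. The first CLDN1 clone alone passed as lower at -1.21.

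The depots did not stand alike in this comparison. CDH1 in mammary gland exceeded omental adipose tissue by 2.76 ± 0.27 and mesenteric adipose tissue by 2.28 ± 0.39, but subcutaneous adipose tissue by only 0.51 ± 0.35. OCLN passed against each depot, at 2.31 ± 0.19 for subcutaneous, 1.22 ± 0.05 for mesenteric and 1.93 ± 0.12 for omental adipose tissue. TJP3 passed against each as well, between 1.05 ± 0.36 and 1.16 ± 0.36. CLDN4 reached 1.03 ± 0.09 against mesenteric adipose tissue and stayed under 1 against the other depots. CLDN1 was lower in mammary gland than in mesenteric adipose tissue by the size rule, at -1.50 ± 0.26, and had no fixed sign against omental adipose tissue. CRB3 was lower in mammary gland than in mesenteric (-1.004 ± 0.36) and omental adipose tissue (-1.20 ± 0.18) by the size rule, and stood at -0.20 ± 0.10 against subcutaneous adipose tissue.

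Mammary gland was next set against liver, where both organs are epithelial but of different architecture. CDH1 and EPCAM were higher in mammary gland and CLDN1 was higher in liver. CDH1 averaged 2.79 in mammary gland and 1.56 in liver, a difference of 1.23 ± 0.24 (2.35-fold). EPCAM averaged 0.44 in mammary gland and -0.75 in liver, a difference of 1.18 ± 0.31 (2.27-fold). CLDN1 averaged 0.78 in mammary gland and 3.17 in liver, a difference of -2.39 ± 0.29, so that it was 5.24-fold higher in liver. The 2 genes higher stand beside 4.44% of 4325 genes, and the 1 gene lower beside 9.34%. CDH1 read 0.99 in the orientation with the tissue in Cy3 and EPCAM 0.87 in the other, so each passes in 1 orientation alone. CLDN1 passed in both and with either clone, at -3.03 and -1.75.

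CLDN4 (0.63 ± 0.12) was higher in mammary gland and CLDN7 (-0.48 ± 0.07) higher in liver in both orientations without passing. OCLN (0.19 ± 0.20), CRB3 (0.12 ± 0.22) and TJP3 (0.54 ± 0.60) had opposite signs in the 2 orientations. The median of the 8 was 0.37, against 0.01 over all genes, and 3 of 8 were higher and 2 lower in both orientations at any size, against 36.5% and 37.2% of all genes. Over all genes 192 were higher and 404 lower, a split that became 301 and 303 on arrays that were not centred. Of the 3 claudins CLDN1 alone passed, toward liver. Without passing, CLDN4 lay toward mammary gland and CLDN7 toward liver.

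**Figure D3:**
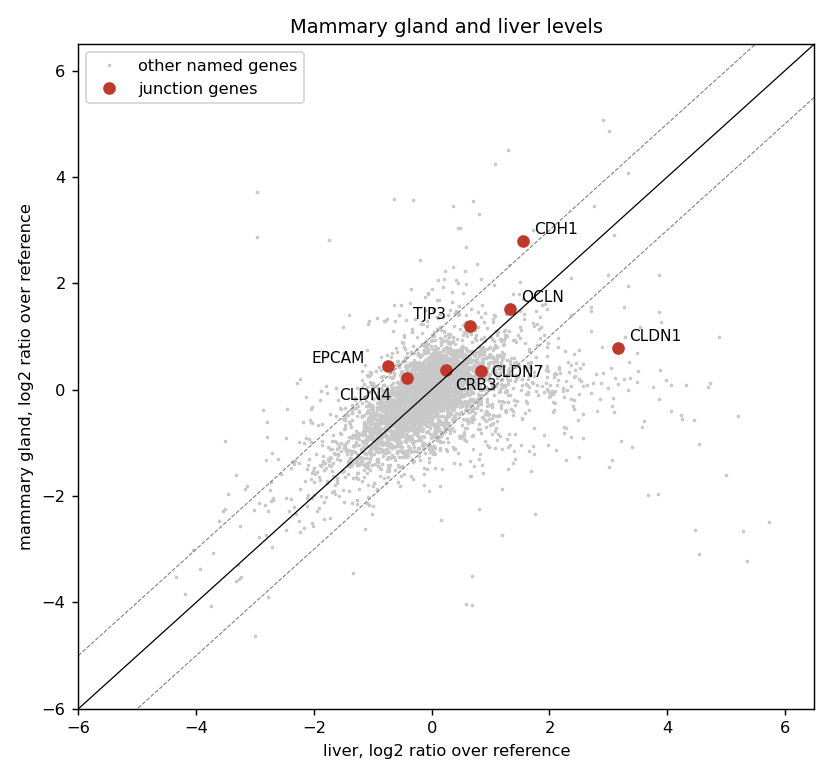
Level in mammary gland (vertical axis) against level in liver (horizontal axis), as log2 ratios over the reference, for 4307 named genes, with the 8 junction genes in red. The solid line marks equal levels and the dashed lines a difference of 1 log2 unit. CLDN1 lies far to the liver side, and CDH1 and EPCAM lie just past the line on the mammary gland side.

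Liver was also set against the adipose mean, which shares its adipose arrays with the first comparison. CLDN1 and OCLN passed as higher in liver. CLDN1 averaged 3.17 in liver and 1.39 in adipose tissue, a difference of 1.78 ± 0.05 (3.44-fold). OCLN averaged 1.33 in liver and -0.30 in adipose tissue, a difference of 1.63 ± 0.32 (3.10-fold). The 2 of 8 stand beside 7.28% of 4326 genes higher and 6.06% lower by the size rule. CLDN7 (0.84 ± 0.12), CDH1 (0.62 ± 0.09), TJP3 (0.58 ± 0.24) and CLDN4 (0.21 ± 0.12) were higher in liver in both orientations without passing. EPCAM (-0.71 ± 0.37) and CRB3 (-0.92 ± 0.13) were lower in liver in both, also without passing. At any size 6 of 8 were higher and 2 lower in both orientations, against 36.2% and 43.4% of all genes. On arrays that were not centred CLDN4 changed sign, to -0.05, and the split over all genes was 232 higher and 435 lower, against 315 and 262 after centring. CRB3 passed as lower under 5 alternatives, between -1.22 and -1.05. Against the subcutaneous depot alone it stood at -0.32 ± 0.12.

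CDH1 in liver depended on the depot it was set against. Liver exceeded omental adipose tissue by 1.53 ± 0.03 and mesenteric adipose tissue by 1.05 ± 0.15, but lay below subcutaneous adipose tissue by -0.72 ± 0.10. With the subcutaneous depot left out of the mean the liver difference was 1.29 and passed. OCLN passed against each depot, from 1.03 ± 0.25 for mesenteric to 2.12 ± 0.39 for subcutaneous adipose tissue.

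Within adipose tissue, the subcutaneous depot was set against the mean of the visceral depots. CDH1 averaged 2.27 in subcutaneous and 0.27 in visceral adipose tissue, a difference of 2.01 ± 0.02 (4.02-fold). It was the 1 gene of 8 past the size rule, beside 6.23% of 4332 genes higher and 3.72% lower, and it passed with each clone alone (2.11 and 1.90). Both subcutaneous arrays lay above all 4 visceral arrays. No other member followed: CRB3 (-0.90 ± 0.01), OCLN (-0.73 ± 0.11), CLDN7 (-0.19 ± 0.04), TJP3 (-0.06 ± 0.01) and CLDN1 (-0.02 ± 0.01) were lower in subcutaneous adipose tissue in both orientations without passing. The CLDN1 value rests on a mean of unlike visceral depots (2.28 in mesenteric and 0.51 in omental adipose tissue), and without the omental array whose dye labels disagree it was -0.51 ± 0.49. CLDN4 (0.10 ± 0.43) and EPCAM (0.10 ± 0.12) had no fixed sign. At any size 1 of 8 was higher and 5 lower in both orientations, against 40.4% and 36.8% of all genes. On arrays that were not centred CDH1 stood at 2.64, and CLDN1 (0.60), CLDN7 (0.44) and TJP3 (0.57) changed sign. CRB3 and OCLN stayed below 0 there but shrank to -0.28 and -0.10. Over all genes 858 were then higher and 40 lower, against 270 and 161 after centring. In tissue RNA, fewer cells of a type and less RNA per cell cannot be told apart.

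Markers of other cell types moved in the same comparison. All 6 measured leukocyte markers were higher in subcutaneous adipose tissue by the size rule (median 3.43), from CORO1A at 1.90 ± 0.15 to CYBB, a subunit of the oxidase of phagocytes, at 4.32 ± 0.04. Their log2 ratios summed to 16.9 and 20.5 on the subcutaneous arrays, against -3.07 and -0.79 on the mesenteric and 0.17 and 3.33 on the omental arrays. Of 10 measured simple epithelial markers none was higher, and KRT19, a keratin of simple epithelia, at -1.62 ± 0.35 and SPINT1, an inhibitor of epithelial serine proteases, at -1.39 ± 0.04 were lower. Of 5 adipocyte markers 3 were lower, CAV1 (caveolin) at -2.13 ± 0.06, LIPE at -1.95 ± 0.15 and PNPLA2, a triglyceride lipase, at -1.52 ± 0.11. Of 4 endothelial markers 3 were lower, CDH5 at -1.52 ± 0.22, TEK at -1.33 ± 0.07 and KDR at -1.17 ± 0.05. Of 2 measured myoepithelial markers, which smooth muscle shares, TAGLN was lower at -1.77 ± 0.03 and MYH11 did not pass, at -0.31 ± 0.06. Fibroblast markers went both ways, with VIM higher at 1.10 ± 0.06 and COL3A1 lower at -1.16 ± 0.35. On the mammary gland arrays the leukocyte ratios summed to -4.14 and -0.98, with a median of -0.74 against 2.92 in subcutaneous adipose tissue. The leukocyte markers did not lie together in mammary gland, from LAPTM5 at -2.07 ± 0.30 to CD3E at 2.03 ± 1.19. E-cadherin is known from some macrophages and dendritic cells as well as from epithelia. The part of any of these cells in the CDH1 values was not tested.

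**Figure D4:**
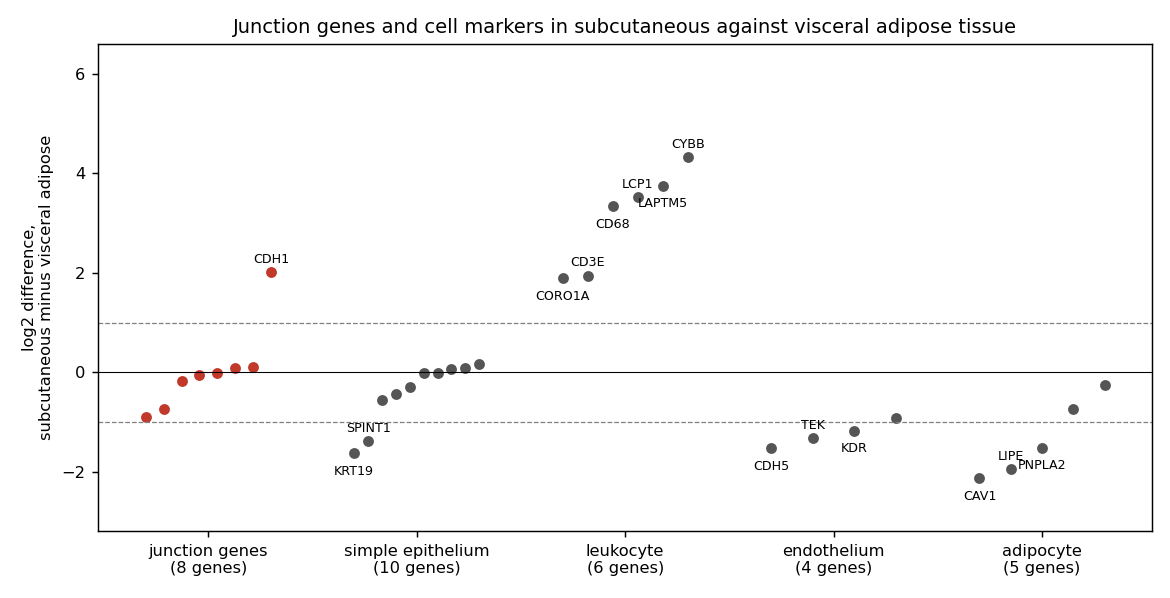
Log2 difference of subcutaneous minus visceral adipose tissue (vertical axis) for the 8 junction genes in red and for measured markers of 4 cell types in grey, 1 point per gene, with dashed lines at 1 log2 unit. CDH1, at 2.01, stands apart from the other junction genes and from the epithelial markers, and all 6 leukocyte markers lie above 1.

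The visceral depots differed in CLDN1. It averaged 2.28 in mesenteric and 0.51 in omental adipose tissue, a difference of 1.76 ± 0.16 (3.39-fold), at place 8 of 4340, or 4333 with the ratio read the other way. This was the 1 gene of 8 past the size rule, beside 0.829% of genes higher and 0.576% lower. The mesenteric arrays read 1.69 and 2.86 and the omental arrays 0.09 and 0.93, without overlap, and both clones passed (1.90 and 1.63). OCLN followed at 0.71 ± 0.07 and CDH1 at 0.47 ± 0.12, neither past the rule. CLDN4 (-0.34 ± 0.10) and EPCAM (-0.06 ± 0.03) were lower in mesenteric adipose tissue in both orientations, TJP3 (0.11 ± 0.01) was higher, and CLDN7 and CRB3 had no fixed sign. At any size 4 of 8 were higher and 2 lower in both orientations, against 31.6% and 34.5% of all genes. On arrays that were not centred CLDN1 stood at 1.45, TJP3 changed sign, to -0.21, and 19 genes were higher and 74 lower, against 36 and 25 after centring.

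KRT19 moved with CLDN1 between these depots, at 2.35 in mesenteric and 0.64 in omental adipose tissue (1.72 ± 0.32), and was the 1 of 10 epithelial markers to pass. The tight junction plaque gene CGN (cingulin) also passed, at 0.70 in mesenteric and -0.50 in omental adipose tissue (1.21 ± 0.10, 2 elements). CGN was named here after its value was seen. The mesothelial list had 3 measured genes, KRT8, KRT18 and KRT19, which simple epithelia share. They did not move together: beside KRT19, KRT8 stood at 0.61 ± 0.48 and KRT18 at -0.19 ± 0.01, neither past the rule. Their ratios summed to -3.44 and -3.34 on the mesenteric arrays and to -5.72 and -5.33 on the omental arrays, a gap that KRT19 carries for the most part. MSLN, UPK3B and WT1, which define mesothelium, were not analysed here, and the part of mesothelium was not tested.

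Other junction genes were read from lists of each junction class. Of 5 measured strand and plaque genes of the tight junction, CGN was higher in mammary gland than in adipose tissue (1.38 ± 0.28) and higher in liver than in adipose tissue (2.06 ± 0.17). The other 4 (F11R, JAM3, MAGI3 and MARVELD3) did not pass in either comparison. The list's median was 0.52 for mammary gland and 0.16 for liver against adipose tissue, with medians of -0.05 and -0.06 over all genes. None of the 5 passed between mammary gland and liver.

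The adherens junction list, which holds the catenin genes CTNNA1 and CTNND1, had 7 measured genes. None passed for mammary gland against adipose tissue (median 0.34) or against liver (median 0.13). NECTIN2, a cell adhesion receptor named after its value was seen, was higher in liver than in adipose tissue at 1.22 ± 0.06. CTNND1, a catenin that binds E-cadherin directly, read 0.34 ± 0.02 where CDH1 read 1.85 ± 0.34. Desmosome genes numbered 4, of which none passed for mammary gland against either, while PPL (periplakin, 1.34 ± 0.14) and DSC2 (desmocollin 2, 1.29 ± 0.00), also named after their values were seen, were higher in liver than in adipose tissue. Of 4 gap junction genes GJB6, a connexin, was lower in mammary gland than in liver (-1.20 ± 0.05).

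The list of apical-basal polarity complexes, to which CRB3 belongs by function, had 10 measured genes. Mammary gland exceeded adipose tissue in PATJ, a scaffold of the Crumbs complex, at 1.61 ± 0.10, and in PRKCZ, an atypical protein kinase C of the PAR complex, at 1.75 ± 0.24, and none was lower by the size rule (median 0.32). Mammary gland exceeded liver in PRKCZ (2.01 ± 0.59) and in EZR (ezrin, a linker of apical membrane to actin, 1.91 ± 0.23) and lay below it in LLGL2, a basolateral polarity gene (-1.43 ± 0.31). PATJ was also higher in liver than in adipose tissue (1.22 ± 0.12). CRB3 stood at -0.80 ± 0.09 and -0.92 ± 0.13 in mammary gland and liver against adipose tissue, on the other side of 0 from PATJ.

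Among 6 measured regulators of the epithelial state, EHF, an epithelial transcription factor (4.33 ± 0.53), ESRP1, a splicing factor of epithelial cells (2.48 ± 0.24), and GRHL1, a grainyhead-like factor (1.26 ± 0.37), were higher in mammary gland than in adipose tissue. The list's median was 1.12, and EHF and ESRP1 also passed against liver (3.88 ± 0.49 and 2.82 ± 0.07). GRHL2, the member of that family known to act on CDH1 and CLDN4, stood just under the rule, at 0.98 ± 0.24 against adipose tissue and 0.89 ± 0.10 against liver. Of the junction genes of mesenchyme and endothelium CDH5 (VE-cadherin), PECAM1 and TEK were measured, and they read -0.63 ± 0.01, -0.96 ± 0.21 and -0.80 ± 0.16 in mammary gland against adipose tissue, none of them past the rule. Markers of other stromal cells did pass there. All 4 fibroblast markers were lower in mammary gland, from DCN (decorin) at -2.21 ± 0.19 to the collagen gene COL1A2 at -3.61 ± 0.12. So were 4 of 6 leukocyte markers, led by CD68 at -2.60 ± 0.27, and 2 of 5 adipocyte markers. The leukocyte differences depended on the depot, and the subcutaneous depot was highest in each of the 4. CYBB stood at 0.99 in mammary gland, against 1.31 in mesenteric, 1.73 in omental and 5.84 in subcutaneous adipose tissue. CD68, LAPTM5 and CYBB lay below each depot in mammary gland. LCP1 lay above mesenteric adipose tissue there, at -2.034 against -2.298. All 4 fibroblast markers were also lower in liver than in adipose tissue. Their part in the differences of CDH1, OCLN and TJP3 was not tested. Of 10 simple epithelial markers, mammary gland exceeded adipose tissue in 7 and lay below it in 1 (median 1.69), and liver exceeded adipose tissue in 3 (median 0.35).

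Nearest profiles were sought for each junction gene as the smallest Euclidean distance of log2 ratios over the 5 tissues among 4307 genes. Such a distance takes in how far each gene lies from the reference as well as the shape of its profile. When each gene was first centred on its own mean over the tissues, an alternative chosen after seeing the data, PATJ stayed among the 3 nearest of OCLN, PDE2A of CRB3, and CIST1 and ELMO3 of TJP3, and none stayed for the other 5 junction genes. The 3 genes nearest to OCLN were COBLL1 (0.52), PATJ (0.69) and CGN (0.75), against a median distance of 2.52. PATJ averaged 1.19 in mammary gland, 0.79 in liver, -0.98 in subcutaneous, 0.12 in mesenteric and -0.42 in omental adipose tissue, and CGN 1.18, 1.85, -0.82, 0.70 and -0.50 in the same tissues. Among the junction genes themselves the one nearest to OCLN was TJP3, at 1.21 and place 16 of 4306. TJP3 itself lay nearer to CLDN7, at 0.90.

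CLDN4 lay nearest to BAG1 (0.21), ELF3, an epithelial transcription factor (0.27), and FAM169A (0.27). CLDN7 lay nearest to ARHGEF26 (0.21), RNF122 (0.22) and ACP6 (0.25), and TJP3 nearest to CIST1 (0.16), ELMO3 (0.20) and GGT5 (0.22). EPCAM lay nearest to STX12 (0.25), KMT5A (0.34) and SFN, an epithelial 14-3-3 protein (0.35). The levels of these 4 genes lay between -0.82 and 1.20, and their median distances to all genes were 1.36 to 1.79.

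CRB3 lay nearest to PDE2A (0.26), GNA15 (0.51) and S1PR1, a sphingosine phosphate receptor of endothelium and lymphocytes (0.55), against a median of 2.46. The 4 measured endothelial markers had median levels of 1.40 in mammary gland, 1.61 in liver, 1.21 in subcutaneous, 2.86 in mesenteric and 2.38 in omental adipose tissue. The part of endothelium in the CRB3 values was not tested. CDH1 lay nearest to CTNS (1.36), CD3D, a T cell receptor subunit (1.67), and FOLR1, a folate receptor (1.68), against a median of 4.08. CLDN1 lay nearest to C2, a complement component (1.31), SHQ1 (1.43) and LOC514257 (1.46), against a median of 4.37. With each gene centred on its own mean, PLBD2 was nearest to CDH1, at 0.77 against a median of 2.40. FBXO11 was then nearest to CLDN1, at 1.02 against a median of 2.30.

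**Figure D5:**
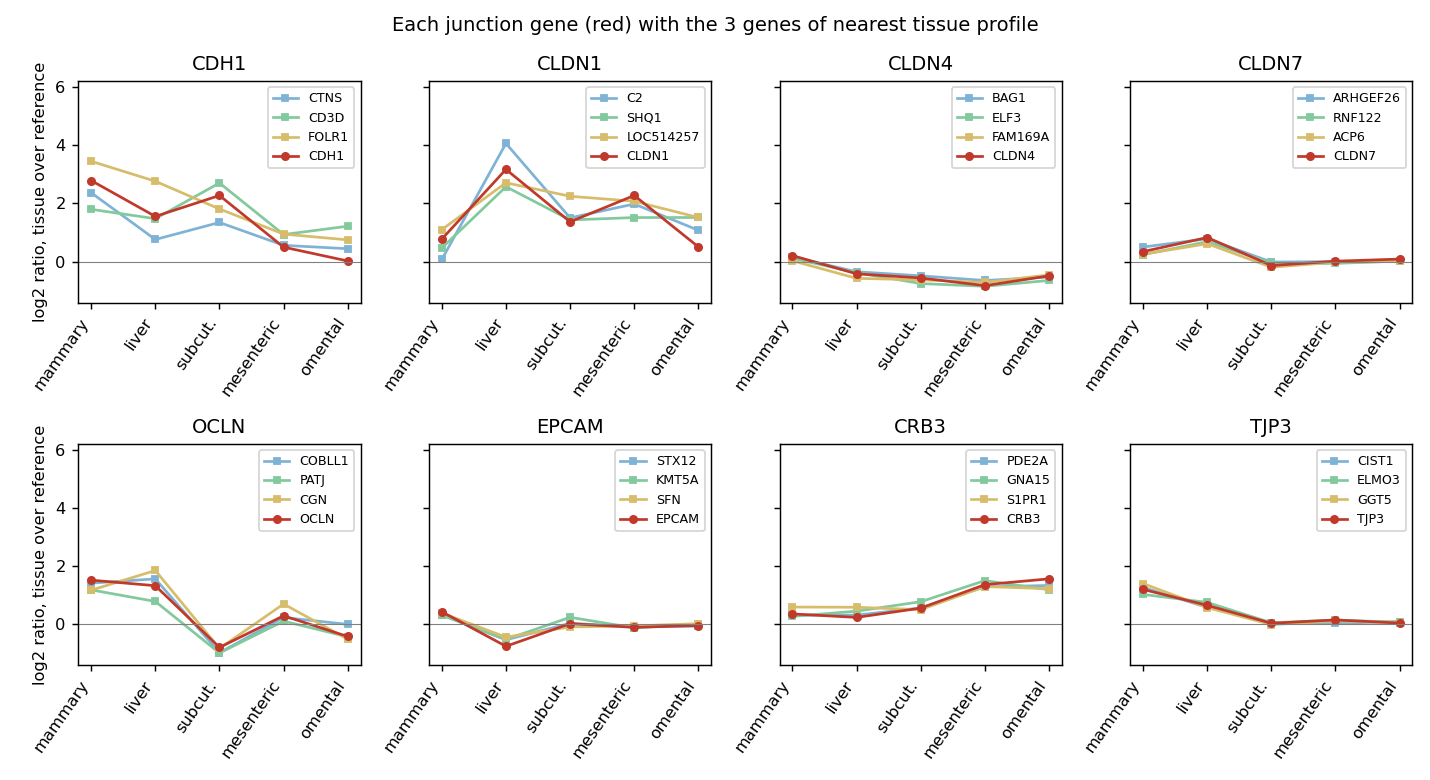
Log2 ratio of tissue over reference (vertical axis) in 5 tissues for each junction gene (red) and the 3 named genes with the nearest profile. OCLN, PATJ and CGN all lie above 0 in mammary gland and liver and below it in subcutaneous and omental adipose tissue, and CRB3, PDE2A, GNA15 and S1PR1 are highest in the visceral depots.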

How the data were processed

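The deposited values are log2 ratios of the 2 dyes for 16416 spots on 10 arrays, per the series' value table. The base was inferred from a ceiling of 16.61, the log2 of 100000, at which 94 values sat and were taken as missing. Slides were hybridised for 2 days at 42 C with cDNA of 20 ug of RNA and read with GenePix 4.0, per the series' design text. How background was treated and whether values were normalised: not given in the sources used here. Array medians ran from -1.32 to 0.71 as deposited, and depth has no meaning here beyond the number of arrays.

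Values were negated where Cy3 held the tissue. The second omental array (tissue in Cy5) carries labels that disagree on the reference dye. Its dye label was used, it correlated at -0.70 with the other omental array, and it was left out in an alternative. Each array was centred on its median, duplicate spots were averaged (they correlated at 0.83 to 0.92), and elements of a gene were averaged.

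Annotation identifiers do not match the row order. The table (48 blocks of 171 elements) was joined to the annotation (16 blocks, 8448 positions) through 384-well plates by the layout in which clones of the same gene agreed best, over 104 by 448 layouts. The search used 474 genes and left out the 8 junction genes. On 474 held-out genes the mean cosine was 0.47, against 0.10 for the next layout and 0.02 for identifiers at face value. For profiles of length 1 or more it was 0.78, against 0.31 for the next layout. Because the layout used was known from earlier work on all genes, the held-out values are not blind. Plates 1 to 20 were named. Among these, the mean cosine of clone pairs (profiles of length 1 or more) was lowest on plates 1 (0.53) and 19 (0.65). Plate 1 holds the only CLDN7 clone and plate 19 the only CRB3 clone. Symbols were updated through Entrez identifiers in RefSeq for 5467 of 5472 elements (assembly ARS-UCD2.0); no build is named for the files, so no coordinates are given. Of the identifiers, 10884 had 1 symbol, 186 several and 5346 none.

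Members and lists were chosen with earlier results of these data known. Named genes were all members, the 3 largest differences past the size rule in each junction list for mammary gland against adipose tissue and against liver, the 3 nearest profiles of each member, and measured markers. No test was run, with 1 sample per tissue. The layout search and size rule were tested on simulated data. Python 3.11.15, numpy 2.4.6 and pandas 2.3.3 were used.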

Additional observations from a re-analysis of the deposited data

How the results depend on the processing

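With 1 RNA sample per tissue, the limits are set by the lack of replicate animals, by the unstated direction of the ratio and by names that rest on a reconstructed layout. No channel intensities were used, which leaves signal over background unknown. Of the 10 member differences past the size rule, 10 stayed past it without centring, after quantile normalisation and with ceiling values kept. The same held with the median over elements and with the first spot of each pair. Without replicate 1 (tissue in Cy3) 9 stayed past it and without replicate 2 (tissue in Cy5) 8 did, while all 10 kept their sign. Without replicate 1, for mammary gland against liver, EPCAM fell under the rule at 0.87 and TJP3 passed at 1.14. With the ratio taken the other way round every difference changed sign by construction: for mammary gland against liver CDH1 became -1.23, CLDN1 2.39 and EPCAM -1.18; against adipose tissue CDH1 became -1.85, OCLN -1.82 and TJP3 -1.12; for liver against adipose tissue CLDN1 became -1.78 and OCLN -1.63; CDH1 became -2.01 between subcutaneous and visceral and CLDN1 -1.76 between mesenteric and omental adipose tissue. The member counts higher and lower then became 1 and 2, 0 and 3, 0 and 2, 0 and 1, and 0 and 1 in these comparisons, and those over all genes exchanged places, at 404 and 192, 290 and 124 and, for the depots, 161 and 270.

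Leaving out an orientation moved the members higher in mammary gland against liver to between 1 and 2, and the members lower in liver against adipose tissue to between 0 and 2 of a count of 0. Members lower became 1 for mammary gland against adipose tissue without the subcutaneous depot (CRB3) or with the first clone alone (CLDN1, chosen after seeing the data). They became 1 for liver against adipose tissue without centring, after quantile normalisation, with the first spots and without the subcutaneous depot, and 1 for subcutaneous against visceral adipose tissue after quantile normalisation and with the first spots (all CRB3). The cause was not tested.

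On arrays that were not centred the median over all genes moved by 0.22 for mammary gland against liver, -0.26 for liver against adipose tissue, 0.63 for subcutaneous against visceral and -0.31 for mesenteric against omental adipose tissue. The genes counted became 301 higher in mammary gland than in liver, 435 lower in liver than in adipose tissue, 858 higher and 40 lower in subcutaneous, and 19 higher and 74 lower in mesenteric adipose tissue. For mesenteric against omental adipose tissue 36 genes were higher and 25 lower. Leaving out an orientation gave 54 to 64 higher and from 44 to 48 lower, without the omental array in doubt they were 64 and 44, and with the first spots 15 were lower. No paired analysis was possible because the labels give no replicate numbers and both arrays of a tissue carry the same RNA. A planned search for motifs in promoters was not run, since no promoter sequence was used here.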
